A study of Mus musculus with 8 samples.

Results

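The mitochondrial ribosomal protein genes of the mouse were examined in RNA bound to ribosomes of hypocretin neurons and in the RNA left behind by the same purification. Members were chosen by name: every probe set to which the array annotation gives a single gene symbol that begins with Mrpl or Mrps followed by a digit. This gave 156 probe sets out of 45037 on the array and 76 genes out of 18194 with a single symbol, of which 47 carry names of the large subunit (Mrpl) and 29 names of the small subunit (Mrps). All 76 genes had at least 1 probe set above the filter on dim signals, so none was left out of the test.

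Hypocretin (orexin) neurons lie in the lateral hypothalamus and are known for their part in wakefulness and feeding. They were profiled by translating ribosome affinity purification, in which a tagged protein of the cytosolic ribosome is made in a chosen cell type and its ribosomes are pulled down with the messages they carry. All 8 samples came from the diencephalon (thalamus and hypothalamus, dissected together) of adult mice 6 to 12 weeks old, of both sexes, on a mixed Fvb and c57/bl6j background, and all mice carried the BAC transgene of line Hcrt JD218. Each of the 4 preparations pooled 5 mice and gave 1 immunoprecipitate (IP) sample, RNA on tagged ribosomes, and 1 unbound sample, which the submitters offer as the total RNA control of the tissue. The whole study rests on 1 transgenic line, and the unbound fraction holds RNA of every other cell type as well as RNA off the ribosome. A difference between the fractions can therefore come from more or fewer cells of a type, from more or less of an RNA per cell, or from its ribosome loading, and these cannot be told apart.

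Mitochondria make a small set of respiratory chain subunits with ribosomes of their own. All proteins of these ribosomes are encoded in the nucleus, translated by cytosolic ribosomes and imported, so their messages can be captured by the tagged cytosolic ribosomes, whereas the mitochondrial ribosome itself carries no tag. Some of the proteins descend from bacterial ribosomal proteins and others were added during the evolution of mitochondria.

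Marker genes were read first as a check of the labels. Hcrt, the gene of the hypocretin peptide, stood at a log2 level of 15.34 ± 0.17 (SD, n = 4) in IP against 10.32 ± 0.55 (SD, n = 4) in unbound samples, 32.5-fold higher. All 7 tested genes of the hypocretin neuron list (Hcrt, Pdyn, Pcsk1, Nptx2, Lhx9, Rfx4 and Scg2) were called higher, against 4.74% of all tested genes. Called lower were 6 of 7 tested markers of other hypothalamic peptide neurons and 8 of 8 of astrocytes. The same held for 7 of 7 of oligodendrocytes, 6 of 6 of microglia and 2 of 2 of blood vessel cells (Cldn5 and Rgs5, of 5 listed). Of all tested genes 44.2% were called lower. Mean IP levels of Oxt, Gfap, Sox9, C1qa, C1qc, Cx3cr1 and Cldn5 lay under the filter's floor, 5.64 on the log2 scale. Such genes can pass the filter through their unbound arrays alone, so their lower calls carry little weight. The lists were chosen with earlier results of these data known, so these counts are no independent check of the labels. Oligodendrocyte markers were still bright in IP, where their mean log2 level ran from 10.22 to 11.57 over the arrays against 13.02 to 13.34 in unbound samples, and astrocyte markers ran from 6.45 to 8.04 against 10.01 to 10.21. The part of these other cell types in the values below was not tested. Between 33.6% and 34.8% of probe sets reached a linear value of 50 on the IP arrays and 40.5% to 40.9% on the unbound arrays.

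All levels below are log2 values, differences are IP minus unbound on that scale, and errors of differences are standard errors from limma. A gene was called when limma's Benjamini-Hochberg adjusted p, taken over all 17865 tested probe sets, was under 0.05 and the change at least 2-fold. The scale between the fractions is not settled, because each group was normalized apart. With the shift on hybridisation controls that the design text recommends, the median of the 10398 tested genes lay at -0.85, with 4.74% of genes called higher and 44.2% called lower. With each array centred on its median these shares were 20.4% and 19.6%, and after quantile normalization they were 16.4% and 20.6%. With a shift on poly-A controls, 92% of genes were called lower. Each member's difference is therefore also read against the median of all tested genes.

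With the recommended shift, most mitochondrial ribosomal protein genes had an IP level within 2-fold of their own unbound level, while the median of all tested genes was lower in IP. The members' median difference was 0.29, with a middle range from 0.0067 to 0.64 and extremes of -1.01 and 1.88, and their spread (SD 0.53 over genes) was smaller than that of all tested genes (SD 1.29). Relative to the median of all genes the members' median was 1.13 higher, and 74 of 76 members lay above it. With no filter on low values, which brings genes at background into the median of all genes, the members' median was 0.59 above it. The 2 exceptions were Mrpl11 and Mrps27. Of the 76 members, 57 had a positive and 19 a negative difference.

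At the threshold, 5 members were higher in IP (6.58% of members, against 4.74% of all tested genes) and 1 was lower (1.32%, against 44.2%). The 5 were Mrpl54, Mrpl33, Mrps34, Mrpl38 and Mrpl43, and the 1 was Mrpl11. The share called higher is near the background, and the share called lower is far under it. Every IP array lay above every unbound array for 7 members (9.21%, against 6.53% of all genes) and below for 3 (3.95%, against 50.6%). Single arrays moved these counts: 3 members were called higher without IP 2, IP 3 or unbound 1 and 9 without unbound 3, and 0 were called lower without IP 1, unbound 2 or unbound 3 and 2 without unbound 4. The shares of all tested genes in those fits are not given here. These counts show only how far the calls rest on single arrays. How many members pass also depends on the scale: with median centring 53 were called higher and 0 lower, after quantile normalization 33 and 0, and with the poly-A shift 0 and 63. Shifts that move a whole group or array by 1 constant cannot change the place of the members against the median of all genes. Quantile normalization can change it, and there 73 of 76 stayed above that median.

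**Figure D1:**
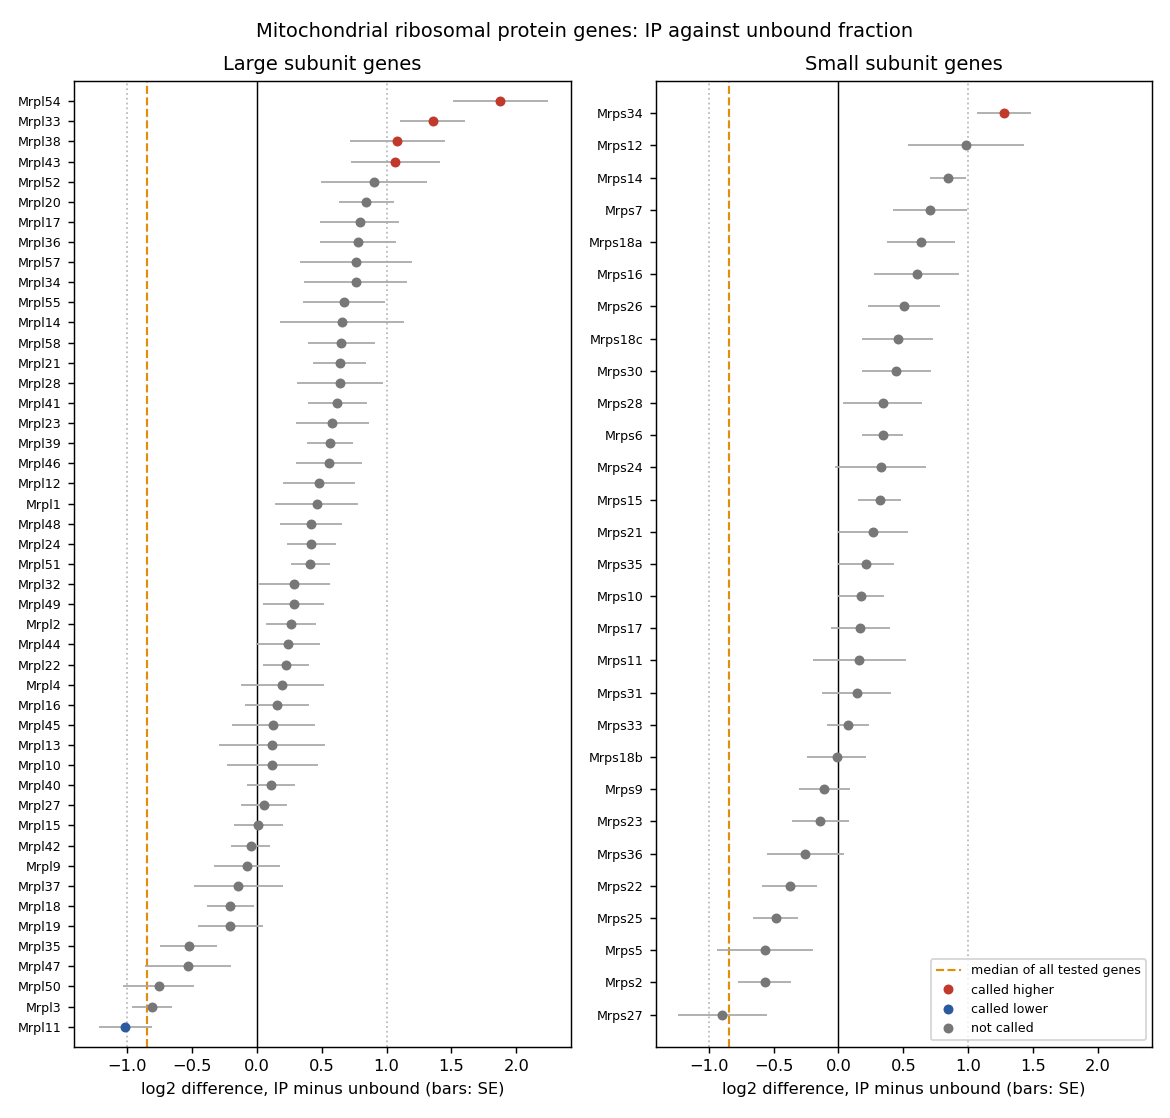
Log2 difference (IP minus unbound, horizontal axis) of each of the 47 large subunit genes (left) and 29 small subunit genes (right), sorted by value, with standard errors as bars, n = 4 arrays in each group. The dashed line marks the median of all tested genes (-0.85), and all members but Mrpl11 and Mrps27 lie to its right, while 5 are called higher and 1 lower.

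Mrpl54 had the largest difference of the members. It encodes a large subunit protein with no bacterial counterpart. Its level was 8.67, 9.28, 9.38 and 9.58 in IP 1 to 4 and 6.41, 7.74, 8.01 and 7.24 in the unbound samples of the same preparations. Every IP array was above every unbound array, and the difference was 1.88 ± 0.37, or 3.67-fold (limma adjusted p = 0.0014). The call held when any 1 array was left out, with differences from 1.56 to 2.10.

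Mrpl33 encodes the counterpart of bacterial L33 in the large subunit. It was level across IP, at 12.08, 12.00, 12.00 and 11.98, and lower and more scattered in unbound samples, at 10.30, 10.94, 11.27 and 10.12. The groups did not overlap, and the difference was 1.36 ± 0.25, or 2.56-fold (limma adjusted p = 0.001). Most of the spread lay between unbound samples 1 and 4 on one side and 2 and 3 on the other. From preparations 2 and 3 alone the difference was 0.89 and under the 2-fold threshold.

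Mrps34 was the single small subunit gene called higher. Its product is a mitochondria-specific protein of the small subunit, and defects of the human gene cause a Leigh-like disease of mitochondrial translation. IP levels were 12.33, 12.81, 12.85 and 13.09 and unbound levels 11.08, 11.66, 11.70 and 11.53, with no overlap. The difference was 1.28 ± 0.21, or 2.42-fold (limma adjusted p = 0.00046), and the call held without any 1 array. A further probe set that the annotation assigns jointly to Nme3 and Mrps34, and which therefore represents neither, differed by 1.07 ± 0.33 (limma adjusted p = 0.016).

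Mrpl38 and Mrpl43, both mitochondria-specific proteins of the large subunit, passed the 2-fold threshold narrowly. Mrpl38 was at 9.02, 10.44, 10.25 and 10.48 in IP and at 8.29, 9.28, 9.20 and 9.10 in unbound samples. IP 1 lay below 3 of the 4 unbound samples, so the groups overlapped although each preparation moved up. The difference was 1.08 ± 0.37, or 2.12-fold (limma adjusted p = 0.025).

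Mrpl43 was at 11.57, 12.39, 12.36 and 12.56 in IP and at 10.21, 11.71, 11.63 and 11.06 in unbound samples. Here too IP 1 was under the highest unbound samples. The difference was 1.07 ± 0.34, or 2.10-fold (limma adjusted p = 0.02). Both calls were lost without IP 2, IP 3, IP 4 or unbound 1. Mrpl38 then gave 0.95, 1.01, 0.94 and 0.86 (limma adjusted p from 0.064 to 0.072), and Mrpl43 gave 1.01, 1.02, 0.95 and 0.76 (limma adjusted p from 0.042 to 0.053).

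**Figure D2:**
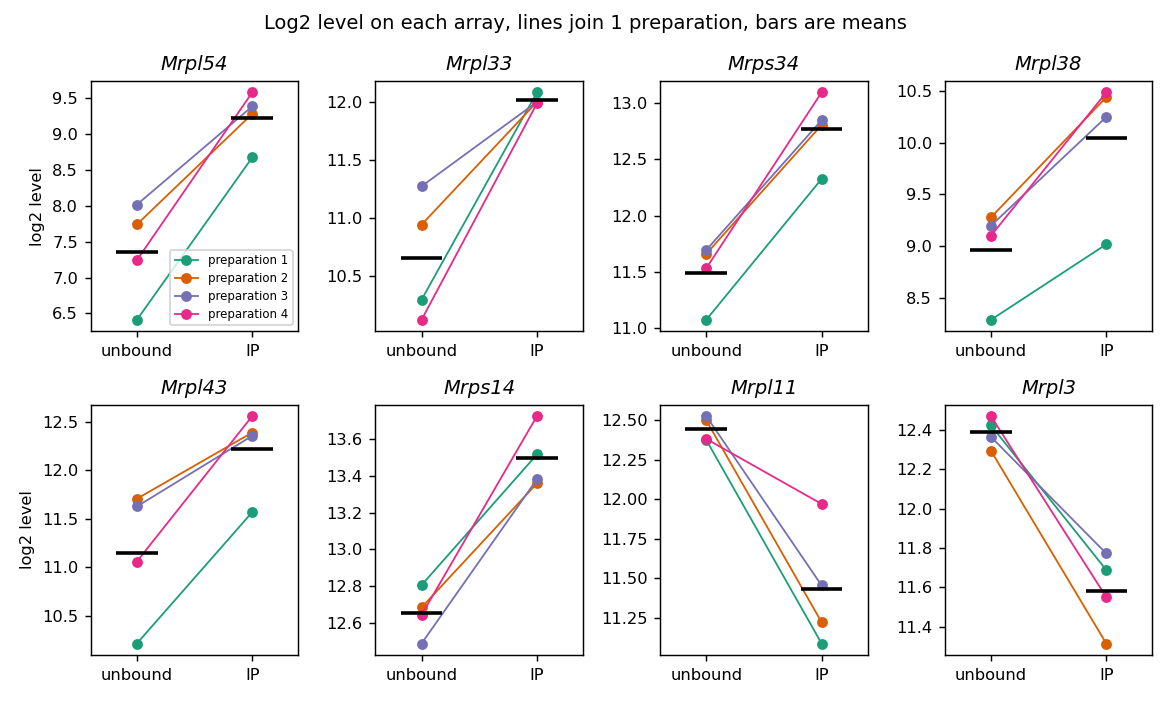
Log2 level (vertical axis, a separate scale in each panel) on each array of the 5 members called higher, of Mrps14, of Mrpl11 and of Mrpl3, with a line joining the unbound and IP sample of 1 preparation and a black bar at each group mean (n = 4). The 4 lines rise in the 6 panels from Mrpl54 to Mrps14 and fall in those of Mrpl11 and Mrpl3, and for Mrpl38 and Mrpl43 preparation 1 lies under the others in both fractions.

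Members just under the threshold of fold or of p included Mrps12, Mrpl52, Mrpl20 and Mrps14. Mrps12 encodes the counterpart of bacterial S12, a protein of the decoding centre, and was at 10.54, 11.93, 11.88 and 11.49 in IP and at 9.66, 11.21, 11.27 and 9.77 in unbound samples. It was higher in each preparation, but the groups overlapped, and the difference of 0.98 ± 0.45 was not called (limma adjusted p = 0.078, and 0.0026 with the preparation as a block, where it missed the 2-fold threshold). Mrpl52, a mitochondria-specific large subunit protein, differed by 0.90 ± 0.41 in its brightest probe set (limma adjusted p = 0.078, and 0.0062 with the block). Its other tested probe sets differed by 1.08 and 1.61 and were both called higher (limma adjusted p = 0.028 and 0.0053). The call for Mrpl52 thus depends on the probe set that stands for it.

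Mrpl20, the counterpart of bacterial L20, was at 11.80, 11.78, 12.01 and 11.84 in IP and at 10.77, 11.60, 10.90 and 10.79 in unbound samples. The groups did not overlap, and the difference of 0.84 ± 0.21 missed only the 2-fold threshold (limma adjusted p = 0.0056). Mrps14, the counterpart of bacterial S14, was named after its values were seen, for its small spread. Its IP levels were 13.52, 13.36, 13.38 and 13.73 and its unbound levels 12.80, 12.68, 12.49 and 12.64. These groups did not overlap, and the difference was 0.84 ± 0.14 (limma adjusted p = 0.00049). The other tested probe sets of Mrps14 differed by 0.025 and -0.31 (limma adjusted p = 0.93 and 0.71), and with all of them averaged the difference was 0.19 (limma adjusted p = 0.62). The other members with no overlap in this direction were Mrpl21 (0.64) and Mrpl51 (0.41), also named after their values were seen. A dimmer probe set of Mrpl51 was called lower, with mean levels of 4.55 in IP and 6.37 in unbound samples, and with its probe sets averaged Mrpl51 differed by -0.37 (limma adjusted p = 0.16).

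Without the 2-fold threshold 14 members were higher and 6 lower at the same adjusted p, against 8.17% and 54.7% of all tested genes. With the preparation as a block and no fold threshold, a pair of settings chosen after seeing the data, 31 members were higher and 7 lower, against 11.4% and 60.3%. Without the block the 6 were Mrpl11, Mrps27, Mrpl3, Mrpl50, Mrps2 and Mrps25, the last named after its values were seen. Counted by preparation with no test, 33 members were higher in IP in 4 of 4 preparations, 16 in 3, 15 in 2, 4 in 1 and 8 in 0. The same count over all tested genes is not given here, so these numbers are not read as particular to the members.

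Mrpl11 was the single member called lower. It encodes the counterpart of bacterial L11, at the base of the stalk where translation factors bind. IP levels were 11.09, 11.22, 11.46 and 11.97 and unbound levels 12.38, 12.50, 12.53 and 12.38. The groups did not overlap, and the difference was -1.01 ± 0.20, with unbound samples 2.02-fold brighter (limma adjusted p = 0.0015). This probe set is of the kind that shares probes with similar sequences (suffix x_at). Its other tested probe sets differed by 0.29 and 0.21 and were not called (limma adjusted p = 0.18 and 0.31), so the probe sets of Mrpl11 disagree in sign. The call was also lost with no shift between groups (-0.99), and without IP 1 (-0.90), IP 2 (-0.94), unbound 2 (-0.99) or unbound 3 (-0.98).

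The genes next in order at the low end did not reach the 2-fold threshold. Mrpl3, the counterpart of bacterial L3, was at 11.69, 11.31, 11.77 and 11.55 in IP and at 12.42, 12.29, 12.37 and 12.47 in unbound samples, with no overlap and a difference of -0.81 ± 0.15 (limma adjusted p = 0.0012). Its next brightest probe set went the other way, at 0.29 (limma adjusted p = 0.31), and the averaged probe sets gave -0.66 (limma adjusted p = 0.013). Mrps27, a pentatricopeptide repeat protein of the small subunit, was at 6.60, 7.74, 7.29 and 6.66 in IP and at 7.90, 8.55, 7.996 and 7.43 in unbound samples. It was lower in each preparation, but IP 2 was above unbound 4, and the difference was -0.89 ± 0.34 (limma adjusted p = 0.041). Mrpl50, mitochondria-specific, differed by -0.75 ± 0.27 (limma adjusted p = 0.034). Mrps2, the counterpart of bacterial S2, differed by -0.57 ± 0.20 (limma adjusted p = 0.032).

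For Mrps5, Mrpl47 and Mrpl35, counterparts of bacterial proteins, the differences of -0.56, -0.53 and -0.52 did not pass the adjusted p (limma adjusted p = 0.21, 0.18 and 0.061, the last 0.038 with the block). With arrays centred on their median the differences of all of these but Mrpl11 became positive, from 0.031 for Mrps27 to 0.40 for Mrpl35. On that scale none of them passed the test. Their direction thus turns with the scale, and they are the members closest to the bulk of tested genes.

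Promoter sequences of the members are shown because genes for mitochondrial proteins are known to share binding motifs of the factors NRF1, GABPA (an ETS factor) and YY1 near their starts. RefSeq promoter windows (GRCm38.p6, 250 bases before to 50 bases after the start) were at hand for 67 of the 76 members. Among the called members these include Mrpl33, with an ETS and an NRF1 motif, Mrpl43, with 2 ETS motifs, and Mrpl11, with none, and next to Mrpl11 at the low end stands Mrps27, with an ETS and a YY1 motif. The windows are chr5:31613701-31614000 (plus strand) for Mrpl33, chr19:45006393-45006692 (minus strand) for Mrpl43, chr13:99344536-99344835 (plus strand) for Mrps27 and chr19:4962056-4962355 (plus strand) for Mrpl11. They are written 5′ to 3′ on the gene's strand, with motif matches on either strand in capitals.
Mrpl33: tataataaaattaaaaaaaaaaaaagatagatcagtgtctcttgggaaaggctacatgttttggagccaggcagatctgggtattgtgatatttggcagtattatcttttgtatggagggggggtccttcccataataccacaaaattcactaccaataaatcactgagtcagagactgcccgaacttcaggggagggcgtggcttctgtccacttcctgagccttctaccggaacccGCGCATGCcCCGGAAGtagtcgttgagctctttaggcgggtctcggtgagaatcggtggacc
Mrpl43: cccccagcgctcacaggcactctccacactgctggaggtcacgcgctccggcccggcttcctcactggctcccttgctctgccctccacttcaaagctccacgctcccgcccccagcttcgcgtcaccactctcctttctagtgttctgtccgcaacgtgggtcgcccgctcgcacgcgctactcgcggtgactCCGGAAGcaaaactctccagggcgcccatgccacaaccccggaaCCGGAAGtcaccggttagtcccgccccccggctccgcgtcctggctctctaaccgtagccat
Mrps27: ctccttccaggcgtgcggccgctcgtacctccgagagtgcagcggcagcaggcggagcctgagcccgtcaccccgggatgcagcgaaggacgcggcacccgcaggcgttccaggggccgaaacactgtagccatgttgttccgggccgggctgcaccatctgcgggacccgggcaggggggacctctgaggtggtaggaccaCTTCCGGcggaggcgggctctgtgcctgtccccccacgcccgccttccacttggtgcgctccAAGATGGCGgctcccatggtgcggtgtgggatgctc
Mrpl11: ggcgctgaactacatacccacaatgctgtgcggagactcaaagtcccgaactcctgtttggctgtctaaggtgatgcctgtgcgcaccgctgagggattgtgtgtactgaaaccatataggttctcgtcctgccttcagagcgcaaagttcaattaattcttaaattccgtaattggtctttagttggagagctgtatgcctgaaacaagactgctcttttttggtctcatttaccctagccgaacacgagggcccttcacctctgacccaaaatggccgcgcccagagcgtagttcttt

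The motif of ETS factors (CCGGAAG, both strands) was in 34.2% of the members' 73 windows, against 17% of the 11059 windows of tested genes and 8.86% of all 32851 windows in the table. The NRF1 motif (GCATGCGC) was in 11% of the members' windows, against 5.24% and 2.71%. The YY1 motif (AAGATGGCG) was also in 11%, against 3.01% and 1.4%. At least 1 of the 3 was in 47.9%, against 23.3% and 12.1%. An ETS and a YY1 match can share the letters AAG, and a match describes the letters of the window and shows no binding.

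Within the members, motif and difference were set side by side with no test. The 25 genes with an ETS match had a median difference of 0.46 and the 42 without had 0.25. The 8 genes with an NRF1 match had 0.26 and the 59 without had 0.32. The 8 genes with a YY1 match had 0.058 and the 59 without had 0.32. Each group spanned genes above and below 0, as Mrpl33 (1.36) and Mrps27 (-0.89), both with an ETS match, show.

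Large and small subunit genes were then contrasted. Of all tested genes 4.74% were called higher and 44.2% lower. Of the 47 large subunit genes, 4 were called higher and 1 lower, and their median was 0.41. The 4 became 2 without IP 2, IP 3 or unbound 1 and 7 without unbound 3, again given without the share of all genes. Of the 29 small subunit genes, 1 was called higher and 0 lower, and their median was 0.21. Without the fold threshold the counts were 12 higher and 3 lower in the large subunit and 2 higher and 3 lower in the small one. The shares of all tested genes were then 8.17% and 54.7%. With the block as well the counts were 21 and 4 in the large subunit and 10 and 3 in the small one. Of all tested genes 11.4% and 60.3% were called in that fit. Relative to the median of all tested genes, 46 of 47 large and 28 of 29 small subunit genes lay above it. The subunits overlapped almost over their whole ranges, from -1.01 to 1.88 for the large and from -0.89 to 1.28 for the small subunit.

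The difference of the medians, large minus small, was 0.20 on the log2 scale, and it has no test of its own. It was 0.15, 0.14, 0.21 and 0.27 in preparations 1 to 4, of the same sign in each. It fell to 0.067 without IP 4, to 0.049 without unbound 3, to 0.064 after quantile normalization and to 0.042 with all probe sets of a gene averaged, so its size rests on those choices. Counted by the place of the proteins in known structures, with Mrps30 and Mrps18a in the large subunit and Mrps36 left out, the medians were 0.42 for 49 large and 0.19 for 26 small subunit genes.

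The mean over the large subunit genes was 10.79, 11.08, 11.13 and 11.15 on IP arrays 1 to 4 and 10.37, 10.95, 10.96 and 10.51 on the unbound arrays. The mean over the small subunit genes was 10.48, 10.81, 10.82 and 10.72 on the IP arrays and 10.24, 10.79, 10.81 and 10.21 on the unbound arrays. Both subunits were lower in unbound samples 1 and 4 than in 2 and 3, and in preparations 2 and 3 the small subunit mean was nearly level between the fractions. The distance between the subunit means was 0.31, 0.27, 0.32 and 0.43 in IP and 0.13, 0.16, 0.15 and 0.30 in unbound samples. It was wider in IP in each preparation, but the groups overlapped, since unbound 4 exceeded IP 2. Because probe sets differ in brightness, the distance itself has no meaning as a ratio of subunits.

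**Figure D3:**
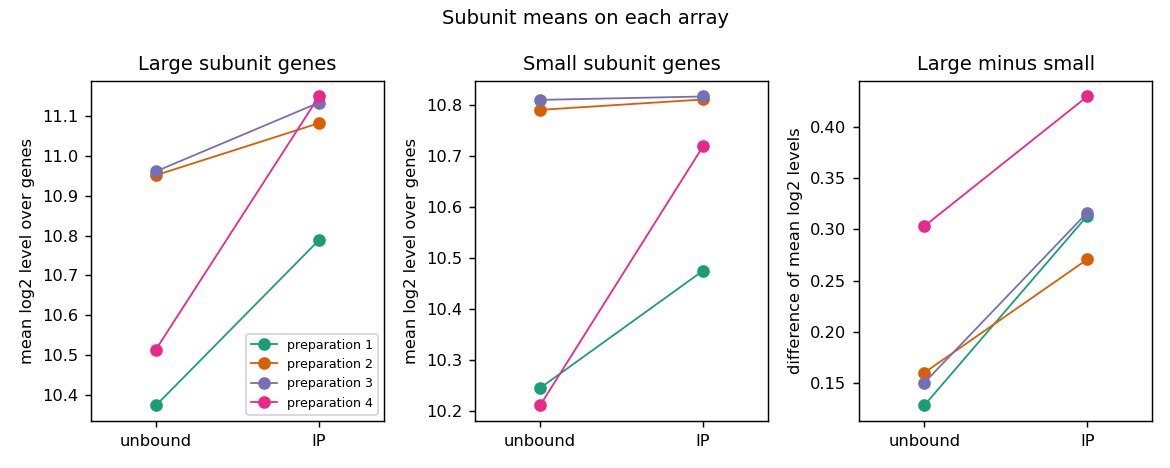
Mean log2 level over the large subunit genes (left, n = 47 genes), over the small subunit genes (middle, n = 29) and the distance between both means (right), on each array, with lines joining the 2 fractions of 1 preparation. The distance rises from unbound to IP in each of the 4 preparations, and unbound 4 (0.30) lies above IP 2 (0.27).

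By ancestry, 47 tested members have a bacterial counterpart and 28 are specific to mitochondria, and Mrps36 was counted in neither class. The first class had 1 gene called higher (Mrpl33), 1 called lower (Mrpl11) and a median of 0.29. The second had 4 called higher, 0 lower and a median of 0.35. Of all tested genes 4.74% were called higher and 44.2% lower. In the large subunit the medians were 0.26 for 29 genes with a bacterial counterpart and 0.49 for 18 specific ones, of which 3 were called higher. In the small subunit the order was the other way, with 0.32 for 18 and 0.11 for 10 genes. None of these differences between classes was tested.

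The 3 paralogues of bacterial S18 take separate places in the mitochondrial ribosome. Mrps18a, whose product sits in the large subunit, was at 11.56, 12.36, 12.31 and 12.28 in IP and at 11.12, 11.98, 11.73 and 11.13 in unbound samples, a difference of 0.64 ± 0.26 (limma adjusted p = 0.054). Mrps18c differed by 0.46 ± 0.28 (limma adjusted p = 0.17), and Mrps18b by -0.014 ± 0.23 (limma adjusted p = 0.96). None of the 3 was called. With the block the adjusted p was 0.0072 for Mrps18a and 0.035 for Mrps18c in limma, both short of 2-fold. Mrps18a and Mrps18c were higher in 4 of 4 preparations and Mrps18b in 2.

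Mrpl12 encodes the stalk protein that has also been found to bind the mitochondrial RNA polymerase, and it differed by 0.48 ± 0.28 (limma adjusted p = 0.15), higher in 4 of 4 preparations. Mrps30, named for the small subunit but placed in the large one, differed by 0.45 ± 0.26 (limma adjusted p = 0.16). Mrps36, whose protein is now known as a part of the oxoglutarate dehydrogenase complex, differed by -0.25 ± 0.30 (limma adjusted p = 0.47). None of these was called. With the block limma's adjusted p was 0.018 for Mrpl12 and 0.043 for Mrps30, both short of 2-fold. For Mrps36, Mrpl23, Mrpl27 and Mrpl48 the RefSeq table lists pseudogenes, so their signal may hold that of near-copies and is uncertain.

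Several probe sets of one gene did not always give the same answer. Of 122 tested member probe sets, 7 were called higher and 11 lower, against 4.88% and 45.1% of all 17865 tested probe sets, and the other 34 of the 156 lay under the filter. More than 1 probe set was tested for 29 members: in 18 of them all sets had an equal call, in 0 they were called in opposite directions, and in 15 their differences had both signs. Of the 11 lower calls, 10 came from probe sets other than the brightest of their gene, among them sets of Mrpl48 (-1.93), Mrpl1 (-1.54), Mrpl3 (-1.30) and Mrps15 (-1.21), which were chosen as examples after their values were seen. When all probe sets of a gene were averaged, 6 members were called higher, the 5 above and Mrpl52, and 1 lower, which was Mrps5 in place of Mrpl11. The average of Mrps5 includes its dim set. Of all genes 4.9% were then called higher and 44.8% lower. Probe sets assigned to a member-type gene and another gene together were not counted as members. The set shared by Gm6238 and Mrpl30 differed by 0.76 (limma adjusted p = 0.032) and that shared by Ccdc142 and Mrpl53 by 0.10 (limma adjusted p = 0.65).

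The members' values varied together across preparations. Their median difference was 0.42, 0.15, 0.17 and 0.65 in preparations 1 to 4, with 55, 52, 45 and 62 of 76 positive, while the median of all tested genes stayed between -0.88 and -0.79. The order of the members was most alike between preparations 1 and 4 (Spearman's rho 0.86 over 76 genes) and between 2 and 3 (0.76), and rho was 0.48 to 0.65 for the other pairs. These are descriptions across genes, which share arrays and are not independent.

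The split lay mainly in the unbound samples. Unbound 1 and 4 were both below unbound 2 and 3 for 57 of 76 members (75%), against 27.8% of all tested genes, and both above for 5 (6.58%), against 25.8%. The members' median minus the median of all genes on the same array was 1.00, 1.52, 1.53 and 1.09 in unbound samples and between 2.22 and 2.56 in IP. Of the control measures, the poly-A controls were also lower in unbound 1 and 4. The mean of these controls, RNAs spiked in before amplification, was 7.97, 9.12, 10.55 and 7.17 in unbound samples and 10.03 to 11.22 in IP. The 3′ minus 5′ signal of Gapdh, a usual measure of RNA and amplification quality, set apart preparation 4 alone, and was 3.36 in unbound 4 and 4.499 in IP 4 against 1.94 to 2.31 on the other arrays. The same measure for Actb did not follow the split in unbound samples, at 3.01, 3.29, 3.45 and 3.80. On IP arrays 1 to 4 it was 4.05, 3.14, 3.53 and 4.11, so IP 1 and 4 lay above IP 2 and 3. Their part in the members' values was not tested.

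From preparations 2 and 3 alone, chosen after seeing the data, 3 members were called higher (Mrpl54, Mrps34 and Mrpl38) and 2 lower, against 5.39% and 43.2% of all genes in the same fit, and the members' median was 0.13, or 0.94 above that of all genes. From preparations 1 and 4 alone, 9 were called higher and 0 lower, against 3.58% and 30.1% of all genes, and the median was 0.54, or 1.42 above. The members thus lay above the bulk of genes in either pair of preparations. A fit with the preparation as a block called the same 5 members higher and the same 1 lower, with 4.98% of all genes called higher and 44.8% lower.

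Genes that work beside these proteins in mitochondrial translation were read from the main fit. The counts of every list below stand against 4.74% of all tested genes called higher and 44.2% called lower. Of 7 mitoribosomal proteins or partners with other names, 6 were tested, 0 were called higher and 1 lower, with a median of 0.25. Gadd45gip1 (0.98, limma adjusted p = 0.12) and Chchd1 (0.72, limma adjusted p = 0.011), both parts of the mitochondrial ribosome, were the highest. Ptcd3, a pentatricopeptide repeat protein of the small subunit, was the one called lower. Its levels were 8.47, 7.86, 8.56 and 8.64 in IP and 10.18, 10.08, 9.60 and 9.79 in unbound samples, a difference of -1.53 ± 0.25 (limma adjusted p = 0.00045). Oxa1l, the membrane insertase that binds the ribosome, differed by -0.37 (limma adjusted p = 0.18). Mrpl58, a peptidyl-tRNA hydrolase built into the large subunit, is in this list and is also a member (0.65). Its value enters the list's median of 0.25, and the other tested genes of the list were more often negative than positive.

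Of 14 tested mitochondrial translation factors, 0 were called higher and 2 lower, and the median was -0.72, close to that of all tested genes. Slirp, which with Lrpprc stabilises mitochondrial messages, differed by 0.998 ± 0.25 (limma adjusted p = 0.005) and missed the 2-fold threshold. Mrrf, the ribosome recycling factor, differed by 0.33 (limma adjusted p = 0.24). The 2 called lower were Mtrf1l, a release factor, at -1.26 (limma adjusted p = 0.0022), and Guf1, an elongation factor. Guf1 was under 50 on 4 of 4 IP arrays and at a mean log2 level of 6.90 in unbound samples. It passed the filter through its unbound arrays alone, so its lower call carries little weight.

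Assembly and rRNA modification factors, 25 of them tested, had a median of -0.33, with 1 called higher and 2 lower. Malsu1, which acts on the large subunit, was at 10.51, 10.49, 10.48 and 10.77 in IP and at 8.74, 9.77, 9.66 and 8.997 in unbound samples, a difference of 1.27 ± 0.26 (limma adjusted p = 0.0018). Mettl17, which binds the small subunit during assembly, differed by 0.90 (limma adjusted p = 0.023) and was not called. Eral1, a chaperone of the small subunit rRNA, and Mettl15, which methylates that rRNA, were called lower at -1.04 and -1.03 (limma adjusted p = 0.002 and 0.02).

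The list of mitochondrial tRNA charging holds the aminoacyl-tRNA synthetases, Qrsl1, Gatb and Gatc, which are subunits of an amidotransferase, and Gars and Kars, which also encode the cytosolic enzymes. Its 17 tested genes had a median of -0.22, with 0 called higher and 3 lower. Lars2, for leucine, differed by -1.47 (limma adjusted p = 0.00055) and Pars2, for proline, was also called lower, with 2 of 4 IP arrays at or above 50. The third was Aars2, for alanine, named after its values were seen, which was under 50 on all 4 IP arrays. Aars2 passed the filter through its unbound arrays alone, so its lower call carries little weight. Kars and Fars2 were the highest, at 0.14 and 0.10, and were not called. The 15 cytosolic counterpart synthetases had a median of -0.76, with 0 called higher and 3 lower. Of 9 tested factors of mitochondrial DNA and transcription, 0 were called higher and 2 lower (Polg, the DNA polymerase, and Tfb2m, an initiation factor of transcription), with a median of -0.82.

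Of the lists read, the cytosolic ribosome and the respiratory chain were set beside the members as other large complexes of nuclear-encoded proteins. The 45 tested cytosolic ribosomal proteins had a median of 0.45, with 7 called higher and 0 lower, and the 76 tested oxidative phosphorylation genes had a median of 0.18, with 2 called higher and 2 lower. Relative to the median of all tested genes these medians were 1.30 and 1.03, against 1.13 for the members. After quantile normalization they were 0.57 and 0.24, against 0.92 for the members. The order of the 3 sets therefore turns with the normalization, and their differences were not tested.

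**Figure D4:**
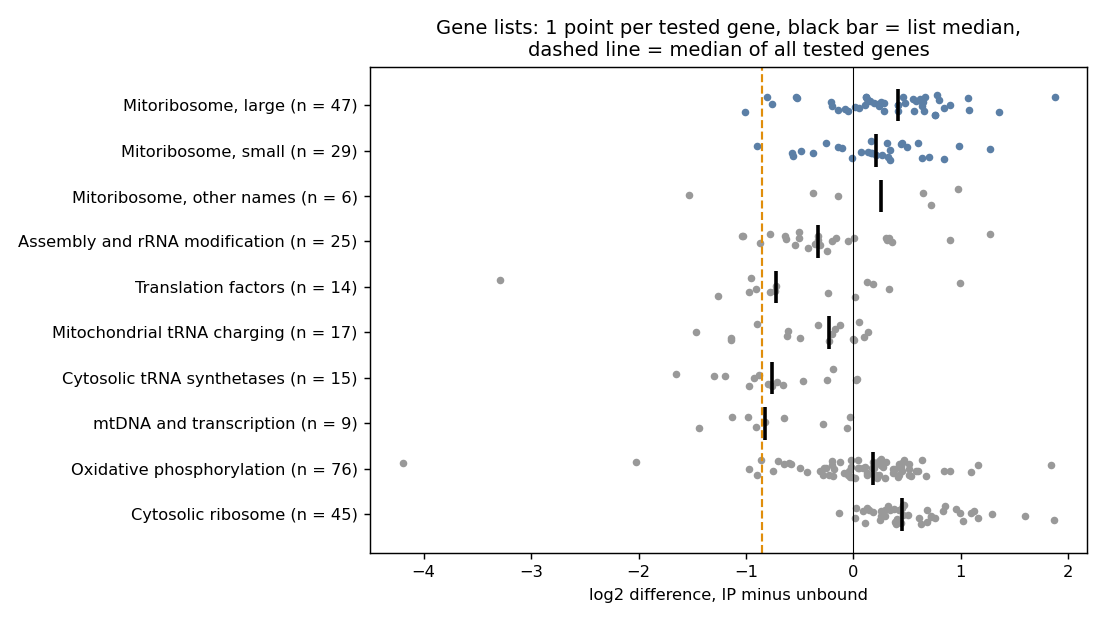
Log2 difference (IP minus unbound, horizontal axis) of every tested gene in 10 groups, 1 point per gene, with a black bar at each median and a dashed line at the median of all tested genes (-0.85). The medians of the large (0.41) and small (0.21) mitoribosomal subunits, of oxidative phosphorylation (0.18) and of the cytosolic ribosome (0.45) lie above 0, and those of translation factors (-0.72), cytosolic synthetases (-0.76) and DNA and transcription factors (-0.82) lie near the dashed line.

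The members are short genes. Their median genomic length was 7690.5 bases, from 828 to 121712, against 25699 for the 10363 tested genes with a length, and 69 of 76 members (90.8%) were shorter than that median. Across the members longer genes had lower differences, with Spearman's rho of -0.47 over 76 genes, and across all tested genes rho was -0.36. The 19 shortest members had a median difference of 0.67 and the 19 longest had 0.13. Mrps34 (1170 bases), Mrpl43 (1429) and Mrpl54 (2205) were among the short ones, and Mrps27 (70796) and Mrpl3 (24199) among the long. Others did not follow this order: Mrpl11, the lowest member, spans 4844 bases, and Mrpl33, next to the highest, spans 8694. The 2172 tested genes whose length lay within the members' middle range had a median of -0.35, between that of all genes and that of the members. These are descriptions across genes, which are not independent.

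**Figure D5:**
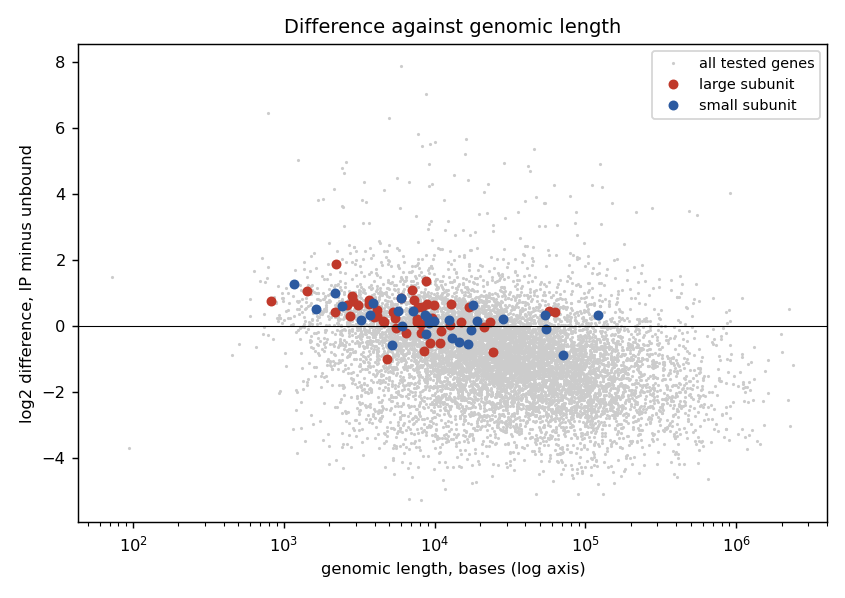
Log2 difference (IP minus unbound, vertical axis) against genomic length in bases (horizontal log axis) for all tested genes (grey, n = 10363), large subunit genes (red, n = 47) and small subunit genes (blue, n = 29). The members lie at the short end, mostly under 25699 bases, with a median difference of 0.29 against -0.35 for tested genes of like length.

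Several members share a start region with a gene on the opposite strand. Among the 67 members with a promoter window, 25 had such a divergent neighbour within 1000 bases, and 14 of the tested neighbours were not members themselves. Of these, 1 was called higher (Fau, a fusion of a ubiquitin-like and a cytosolic ribosomal protein, 1.02, beside Mrpl49) and 2 lower (Hira, a histone chaperone, beside Mrpl40, and Pnpla7, a lipid hydrolase, beside Mrpl41). Those 3 were named after their values were seen. Mean IP levels of Hira (5.45) and Pnpla7 (3.56) lay under the filter's floor, 5.64 on the log2 scale. Their unbound means were 7.38 and 6.12. Such genes can pass the filter through their unbound arrays alone, so these 2 lower calls carry little weight. The neighbours' median difference was -0.021. Of all tested genes 4.74% were called higher and 44.2% lower.

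Mrps12 starts 147 bases from Sars2, the mitochondrial seryl-tRNA synthetase. Sars2 differed by -0.17 (limma adjusted p = 0.57), against 0.98 for Mrps12. Mrpl43 starts 116 bases from Twnk, the helicase of mitochondrial DNA, which differed by -0.91 (limma adjusted p = 0.033) against 1.07 for Mrpl43. Twnk was also dim, at mean levels of 6.57 in IP and 7.48 in unbound samples. With median centring the differences of these neighbours were 0.76 for Sars2 and 0.014 for Twnk, so their sign turns with the scale. The differences between neighbours were not tested. Mrpl46 and Mrps11, both members, start 42 bases apart and differed by 0.56 and 0.16. Beside Mrps27 and Mrpl50, Ptcd2 and Zfp189 differed by -0.32 and -0.67 and were not called. Beside Mrpl47, Ndufb5 of respiratory complex I differed by 0.26 (limma adjusted p = 0.15).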

How the data were processed

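RNA from 4 IP and 4 unbound samples was amplified over 2 rounds and hybridised to Affymetrix arrays, per the labels' protocols. The authors deposited 1 log2 value per probe set and array. GCRMA is named in the submitters' processing notes (version not given in the sources used here), and the design text says that groups were normalized apart. The number of arrays limits the precision.

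From these log2 values, 1 constant per group was subtracted so that 18 hybridisation controls had equal means (0.0223 apart as deposited). The 64 controls were left out. Probe sets at a linear value of 50 or more on at least 4 arrays (17865) entered limma's lmFit and eBayes with trend (limma 3.58.1, R 4.3.3), without a block. The fit was tested on simulated data. For each gene the probe set brightest on average over 8 arrays was used, named from the platform annotation, and all 76 members matched RefSeq's gene table. Promoters came from RefSeq (GRCm38.p6). The files name no genome build.

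The 2 fractions share replicate numbers in the sample titles, and these numbers were taken to join the fractions of 1 preparation. Deviations from group means correlated at 0.44, 0.33, 0.25 and 0.59 between same-numbered arrays. IP 2 with unbound 3 (0.26) and IP 3 with unbound 2 (0.24) were about as alike as IP 3 with unbound 3. These correlations thus do not tell preparations 2 and 3 apart. A replicate block was run beside the main fit.

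The text names the 8 highest and 8 lowest members, Mrps18a, Mrps18b, Mrps18c, Mrpl12, Mrps12, Mrps30 and Mrps36, up to 2 highest and 2 lowest genes of each list, and divergent neighbours of named members. The members, lists and rules were chosen with earlier results of these data known. Other settings were no shift, median centring, quantile normalization, a poly-A shift, a minimum of 100 or none, no trend, 4-fold or no fold threshold, averaged probe sets, the block, each array left out, and subunits by structure. Leaving out pairs of preparations, and the block without a fold threshold, were added after seeing the data. Plots were drawn with matplotlib 3.10.9.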

Additional observations from a re-analysis of the deposited data

Results flagged for a closer look

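In 4 of the 56 groups of 4 values checked, covering the named members, 1 array stood apart from the other 3 by Dixon's criterion, which chance alone meets in about 1 group in 20. Mrpl33 was at 12.08 in IP 1 against 11.98 to 12.00 on the other IP arrays, a gap that is small on the log2 scale. Mrpl38 was at 9.02 in IP 1 against 10.25 to 10.48, and Mrps18a at 11.56 in IP 1 against 12.28 to 12.36. Mrpl20 was at 11.60 in unbound 2 against 10.77 to 10.90. Without IP 1 the difference of Mrpl38 was 1.42 in place of 1.08. The causes were not tested.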

How the results depend on the processing

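Members called higher numbered 5, and 3 to 9 when 1 array was left out (3 without IP 2, IP 3 or unbound 1, and 9 without unbound 3). Members called lower numbered 1, and 0 to 2 when 1 array was left out (0 without IP 1, unbound 2 or unbound 3, and 2 without unbound 4). The shares of all tested genes called with 1 array left out are not given here. Higher and lower counts were 53 and 0 with median centring, 33 and 0 with quantile normalization, 0 and 63 with the poly-A shift, 14 and 6 with no fold threshold, 31 and 7 with the replicate block and no fold threshold, 0 and 0 at 4-fold, 3 and 2 without preparations 1 and 4, and 9 and 0 without preparations 2 and 3. With no shift 0 were lower. The members' median of 0.29 was 1.21 with median centring, 0.87 with quantile normalization, -1.46 with the poly-A shift and 0.54 without preparations 2 and 3, and 0.21 to 0.40 with 1 array left out. Relative to all genes it was 0.59 with no filter and 1.42 without preparations 2 and 3, against 1.13, and 1.01 to 1.27 with 1 array left out. Without a filter, probe sets at background enter the median of all genes, which then lay at -0.30. The large minus small median of 0.20 was 0.064 with quantile normalization, 0.042 with averaged probe sets, 0.099 without preparations 2 and 3, and 0.049 to 0.23 with 1 array left out. The replicate block, which pairs the fractions of 1 preparation, gave 5 higher and 1 lower and changed no call at 2-fold. These changes follow from the constants, thresholds or samples that define each setting, and other causes were not tested.

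Signs reversed with the poly-A shift for Mrpl33 (-0.40), Mrps34 (-0.47), Mrpl38 (-0.67), Mrpl43 (-0.68), Mrps12 (-0.77), Mrpl52 (-0.85), Mrpl20 (-0.91), Mrps18a (-1.12), Mrpl12 (-1.27), Mrps18c (-1.30) and Mrps30 (-1.31). With median centring they reversed for Mrps27 (0.031), Mrpl3 (0.12), Mrpl50 (0.17), Mrps2 (0.35), Mrps5 (0.36), Mrpl47 (0.39), Mrpl35 (0.40), Mrps36 (0.67) and Mrps18b (0.91), and with quantile normalization for Mrps2 (0.016), Mrps27 (0.17), Mrpl35 (0.23), Mrpl47 (0.28), Mrps5 (0.36), Mrps36 (0.51) and Mrps18b (0.70). Mrps2 also reversed with the mean of probe sets (0.20), and Mrpl47 (0.020) and Mrps36 (0.22) without preparations 2 and 3. Mrps18b, at -0.014, was 0.0084 with no shift, -0.098 to 0.17 with 1 array left out (0.17 without IP 1, 0.013 without unbound 2, 0.042 without unbound 4) and 0.26 without preparations 1 and 4. The poly-A shift used 27 controls, of which 3 (Trpn) lay at background on every array, and moved the groups by 1.77. Without those 3 it would have been 1.99. Which controls set the true scale between the fractions was not tested.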
